A study of Mus musculus with 8 samples.

Results

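Expression of 9 complement genes was followed in the mouse distal colon. The genes were listed by symbol (C2, C3, C4b, Cfb, Cfd, Cfp, Serping1, C3ar1 and C5ar1), and the list was not defined by a measured value. It was chosen with earlier results of these data known. All 9 were among the 15859 genes in the table of counts, and all 9 were among the 14371 genes with enough counts to be tested.

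Complement is a set of plasma and tissue proteins that mark targets for removal, draw in leukocytes and lyse cells. The classical and lectin pathways cut C4 and C2, the alternative pathway uses factors B and D and properdin, and all of them meet at C3. Fragments of C3 and of C5 act on leukocytes through their own receptors. Liver is the main source of the plasma proteins, and epithelial cells, macrophages, fibroblasts and fat cells also make some of them locally.

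RNA-seq was performed on colons of 8 male mice of a mixed BALB/c x 129SvEV background. WT and Hsf1 null mice were compared, the latter lacking heat shock factor 1 (HSF1), the transcription factor of the heat shock response, in the whole body and not in 1 cell type. Day 15 mice were injected with 10 mg/kg azoxymethane (AOM), a carcinogen, at 8 weeks of age and then drank 1.5% dextran sulfate sodium (DSS), an irritant of the colon lining, for 5 days. Day 0 mice were untreated and age matched. Genotype and day made 4 groups of 2 mice each, and the labels give 10 weeks as the age of all of them. The titles name day 15 for treated mice and the paper places it after a pause without DSS, whereas the protocol in the labels ends with the DSS days.

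Library totals ranged from 2553348 to 12440257 counts. The untreated replicate 2 was shallow in both genotypes, with 2553348 counts in WT and 2675976 in Hsf1 null. Hsf1 itself was at 40.5 and 36.5 CPM (counts per library, brought to a common total) in WT day 0, 50.5 and 45.9 in WT day 15, 14.0 and 11.9 in Hsf1 null day 0, and 13.5 and 9.09 in Hsf1 null day 15. No null library reached the level of a WT library. The epithelial marker Epcam was between 1010 and 1931 CPM in all 8 libraries. The liver marker Alb stayed at or below 7.54 CPM, and the 4 detected hepatocyte markers of 6 listed summed to 8.38 to 97.0 CPM, of which Cyp2e1 made 0.211 to 87.1.

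Levels are given as CPM of each library, scaled by the TMM method of edgeR. Differences are log2 fold changes with their standard errors (SE) from edgeR's quasi-likelihood test, with p-values adjusted over all tested genes by Benjamini-Hochberg. A gene was called where the adjusted p was under 0.05 and the log2 fold change was beyond 1 in either direction. In whole tissue, fewer cells of a type and less RNA per cell cannot be told apart.

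After AOM-DSS, the opsonin precursor C3, the classical pathway gene C4b and properdin (Cfp) rose in WT colons, and C2 rose in both genotypes. At day 15, C4b and the C1 inhibitor Serping1 were higher in WT than in Hsf1 null colons. None of the 9 passed the edgeR test of a different response between the genotypes. In WT mice, 4 of 9 genes were called higher at day 15 (C2, C3, C4b and Cfp) and none lower, against 3.47% of all tested genes called higher. In Hsf1 null mice, only C2 was called, against 5.30% of all tested genes called higher. Between the genotypes at day 15, C4b and Serping1 were the 2 called genes, both higher in WT, against 1.25% of all tested genes.

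The median log2 fold change of the 9 genes from day 0 to day 15 was 1.37 in WT mice, beside 0.0046 over all tested genes. In Hsf1 null mice it was 1.21, beside 0.052. At day 15 the median difference between WT and Hsf1 null was 1.62, beside 0.035. These comparisons share samples, and each is given on its own.

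**Figure D1:**
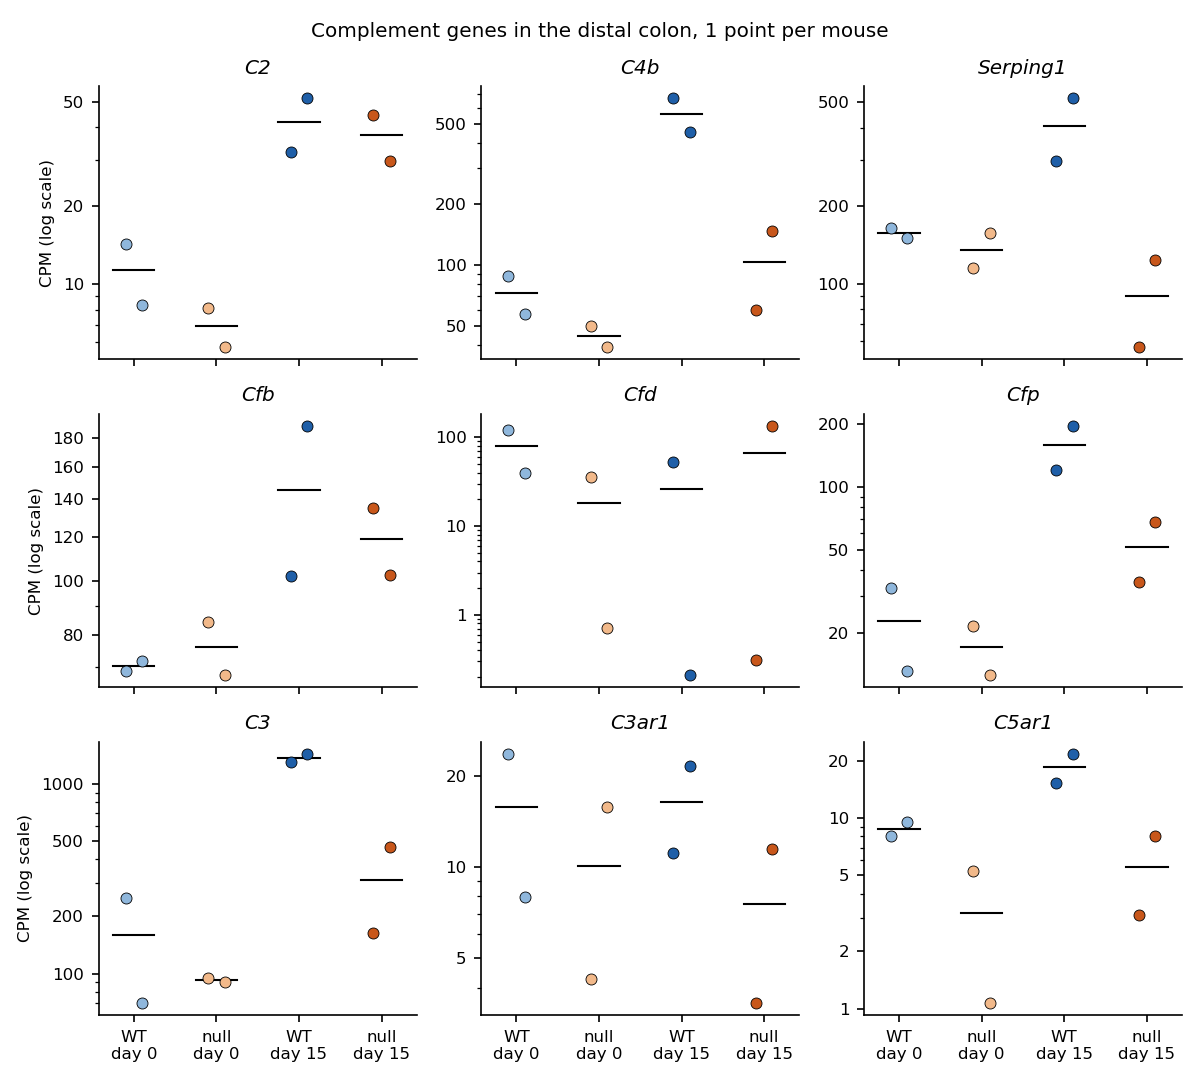
CPM (log axis) of the 9 genes in the 4 groups, with 1 point per mouse and a line at the mean of 2 mice. Both WT day 15 points of C3, C4b, Cfp, Serping1 and C5ar1 lie above the other 6 points of the panel, and Cfd ranges from 0.211 to 133 CPM within the treated mice.

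The classical and lectin pathways run through C4b and C2. C4b encodes the mouse C4 protein, whose large fragment binds covalently to targets. It was at 88.4 and 56.8 CPM in WT day 0 and at 49.7 and 39.2 in Hsf1 null day 0. In treated mice the level was 666 and 455 CPM in WT and 59.9 and 147 in Hsf1 null. Both treated WT libraries stood above the other 6, and the treated null libraries stood above the untreated null ones. The rise in WT was 2.94 on the log2 scale (SE 0.44, edgeR adjusted p = 0.0083), a fold of 7.65. In Hsf1 null mice the log2 fold change was 1.21 (SE 0.42, edgeR adjusted p = 0.080), which missed the threshold, while DESeq2 called it (DESeq2 adjusted p = 0.021). WT exceeded Hsf1 null at day 15 by 2.43 on the log2 scale (SE 0.43, edgeR adjusted p = 0.024). C4b lies at chr17:34728380-34743882 (GRCm38) next to its near copy C4a, which was at 0.359 to 5.39 CPM, and how reads shared by the copies were counted is not given.

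C2 encodes the protease that joins C4b in the C3 convertase of the classical and lectin pathways. It was at 14.3 and 8.34 CPM in WT day 0 and 8.13 and 5.75 in Hsf1 null day 0. It was at 32.0 and 51.4 CPM in WT day 15 and 44.5 and 29.7 in Hsf1 null day 15. All 4 treated libraries stood above all 4 untreated ones, and at day 15 the genotypes overlapped. C2 rose by 1.83 in WT (SE 0.39, edgeR adjusted p = 0.025) and by 2.37 in Hsf1 null mice (SE 0.41, edgeR adjusted p = 0.014) on the log2 scale. The day 15 difference between WT and Hsf1 null was 0.17, with a 95% interval from -0.65 to 0.99. Reads of C2 may be shared with the overlapping Zbtb12 on the opposite strand, since the strand setting of the counting is not given.

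C2 and Cfb are neighbours, 85 bases apart on the minus strand, and with C4b and C4a they lie within 169.9 kb of chromosome 17 (34728380 to 34898265). The read-through gene Gm20547 overlaps both C2 and Cfb in the annotation and is not a row of the count table. The other genes lie apart (GRCm38), C3 at chr17:57203970-57228136, Serping1 at chr2:84765387-84775444, Cfp at chrX:20925454-20931555, Cfd at chr10:79890853-79892655, C3ar1 at chr6:122847138-122856161 and C5ar1 at chr7:16246743-16259540. All 9 are protein-coding.

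Serping1 encodes the inhibitor of C1r, C1s and the lectin pathway proteases. It was at 165 and 150.5 CPM in WT day 0, 115 and 156 in Hsf1 null day 0, 297 and 518 in WT day 15, and 57.1 and 123 in Hsf1 null day 15. Both treated WT libraries were the highest of the 8, and the lowest was a treated null library. The log2 fold change from day 0 to day 15 was 1.37 in WT (SE 0.39, edgeR adjusted p = 0.058) and -0.58 in Hsf1 null mice (SE 0.39, edgeR adjusted p = 0.32), and neither passed the test. The WT change was called by DESeq2 (1.38, DESeq2 adjusted p = 0.0052), and in edgeR without replicate 1 of WT day 15 or without either Hsf1 null day 15 library (edgeR adjusted p 0.027 to 0.044). At day 15 WT was higher by 2.17 on the log2 scale (SE 0.40, edgeR adjusted p = 0.027), a fold of 4.52.

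C3 is the protein on which all pathways act, and its fragments opsonize targets and draw in leukocytes. Its transcript was at 249.1 and 70.3 CPM in WT day 0 and at 94.4 and 89.8 in Hsf1 null day 0. In treated mice the level was 1314 and 1441 CPM in WT and 163 and 463 in Hsf1 null. The treated WT libraries lay close together and far above the rest, and WT day 0 replicate 1 lay above treated null replicate 1. C3 rose by 3.10 on the log2 scale in WT (SE 0.61, edgeR adjusted p = 0.019), a fold of 8.55. The log2 fold change in Hsf1 null mice was 1.76 (SE 0.58, edgeR adjusted p = 0.070), and the day 15 difference between WT and Hsf1 null was 2.14 (SE 0.58, edgeR adjusted p = 0.072). Both missed the threshold in edgeR, and with DESeq2 both passed it (DESeq2 adjusted p = 0.0043 and 0.00049).

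The alternative pathway amplifies C3 cleavage. Properdin, the product of Cfp, is made mainly by leukocytes and stabilizes the convertase of this pathway. Cfp was at 32.7 and 13.1 CPM in WT day 0, 21.7 and 12.6 in Hsf1 null day 0, 121 and 196 in WT day 15, and 34.9 and 67.8 in Hsf1 null day 15. Every treated library stood above every untreated one, and the WT libraries above the null ones at day 15. The rise in WT was 2.73 on the log2 scale (SE 0.49, edgeR adjusted p = 0.014), a fold of 6.64. In Hsf1 null mice the log2 fold change was 1.54 (SE 0.48, edgeR adjusted p = 0.060), and the day 15 difference was 1.62 (SE 0.47, edgeR adjusted p = 0.080). Neither was called in edgeR, and DESeq2 called both (DESeq2 adjusted p = 0.0080 over time and 0.0066 at day 15).

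Factor B, the product of Cfb, carries the protease of the alternative convertase. Cfb was at 68.9 and 71.9 CPM in WT day 0, 84.4 and 67.9 in Hsf1 null day 0, 102 and 189 in WT day 15, and 135 and 103 in Hsf1 null day 15. All treated libraries were above all untreated ones, and the genotypes overlapped on both days. The log2 fold change was 1.05 in WT (SE 0.31, edgeR adjusted p = 0.065) and 0.64 in Hsf1 null mice (SE 0.31, edgeR adjusted p = 0.18). Without replicate 1 of WT day 15 the WT change was 1.43 (edgeR adjusted p = 0.030), and it was called. DESeq2 called it with all libraries (1.06, DESeq2 adjusted p = 0.024).

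Factor D (adipsin), the product of Cfd, is the protease that activates factor B and is known as a product of fat cells. Its counts were 1229 and 99 in WT day 0, 440 and 2 in Hsf1 null day 0, 606 and 2 in WT day 15, and 2 and 998 in Hsf1 null day 15. Scaled, these were 120.5 and 39.3, 36.1 and 0.719, 52.7 and 0.211, and 0.310 and 133 CPM. In 3 of the 4 groups 1 mouse had the gene at 2 counts and the other at 440 or more. No comparison of Cfd was called, and its SE was 1.85 to 1.90 on the log2 scale in the comparisons of groups. Without replicate 2 of Hsf1 null day 15, the day 15 difference between WT and Hsf1 null went from -1.33 to 6.35 on the log2 scale.

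Cfd went with fat cell markers from mouse to mouse. The summed level of 6 such markers (Adipoq, Plin1, Lep, Retn, Fabp4 and Cidec) was 168 and 43.3 CPM in WT day 0, 62.3 and 14.4 in Hsf1 null day 0, 97.4 and 19.4 in WT day 15, and 3.57 and 90.4 in Hsf1 null day 15. The 3 libraries with 2 counts of Cfd had the 3 lowest sums, and the defining marker Adipoq was at 0 counts in those 3. Across the 8 mice Pearson's r of the log2 values of Cfd was 0.90 with this sum and 0.94 with the sum of the 4 detected hepatocyte markers, most of which was Cyp2e1 in the libraries with the higher sums. The 2 genes most like Cfd were Cyp2e1 (r = 0.970), expressed in liver and fat, and Car3 (r = 0.968), expressed in fat and muscle. No adipocyte marker of the 5 tested was called in any comparison. The part of attached fat in the Cfd levels was not tested.

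**Figure D2:**
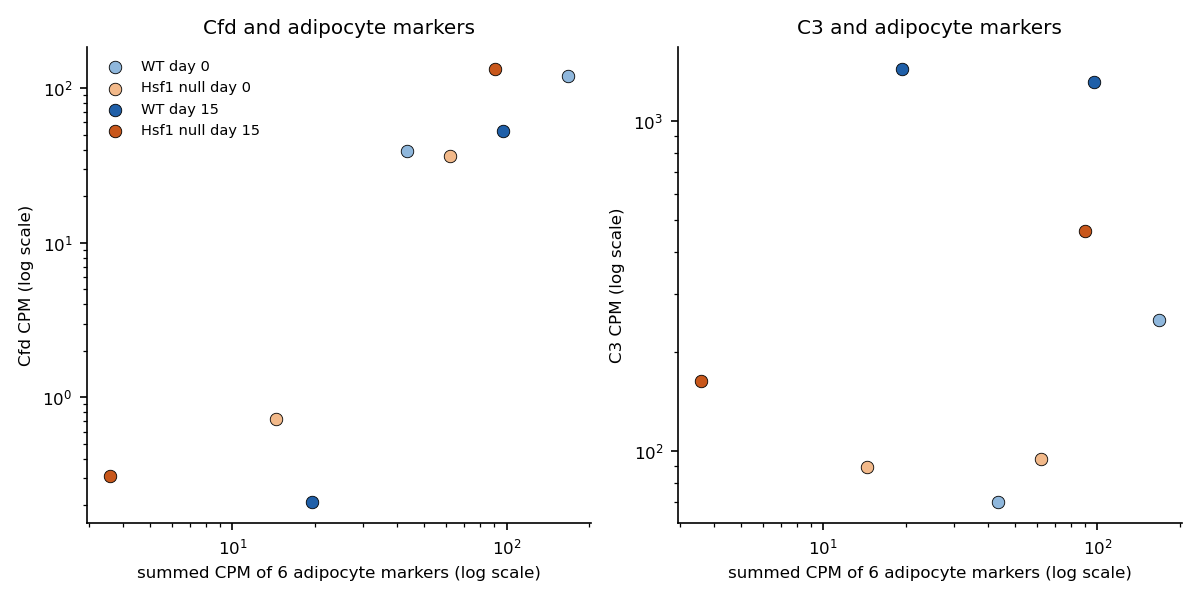
CPM of Cfd (left) and C3 (right) against the summed CPM of 6 adipocyte markers, all on log axes, with 1 point per mouse coloured by group. The 3 mice with Cfd under 1 CPM are those with the lowest sums (3.57, 14.4 and 19.4), and C3 of the 2 treated WT mice is at 1314 and 1441 CPM at sums of 97.4 and 19.4.

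Both receptors were at or below 23.6 CPM. C3ar1, the receptor of C3a on myeloid cells, was at 23.6 and 7.94 CPM in WT day 0, 4.27 and 15.8 in Hsf1 null day 0, 11.1 and 21.5 in WT day 15, and 3.57 and 11.5 in Hsf1 null day 15. The ranges of all 4 groups overlapped. The log2 fold change was -0.0060 in WT, with a 95% interval from -1.60 to 1.59, so changes within that interval in either direction were not excluded.

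C5ar1, the receptor of C5a on neutrophils and macrophages, was at 8.04 and 9.53 CPM in WT day 0, 5.26 and 1.08 in Hsf1 null day 0, 15.3 and 21.7 in WT day 15, and 3.10 and 8.02 in Hsf1 null day 15. WT libraries were above null libraries on both days. Even so, no comparison was called. The day 15 difference was 1.72 (SE 0.61, edgeR adjusted p = 0.13) and the WT change was 1.09 (SE 0.61, edgeR adjusted p = 0.28) on the log2 scale. With DESeq2 the day 15 difference passed (DESeq2 adjusted p = 0.0498). Replicate 2 of Hsf1 null day 0 rested on 3 counts.

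**Figure D3:**
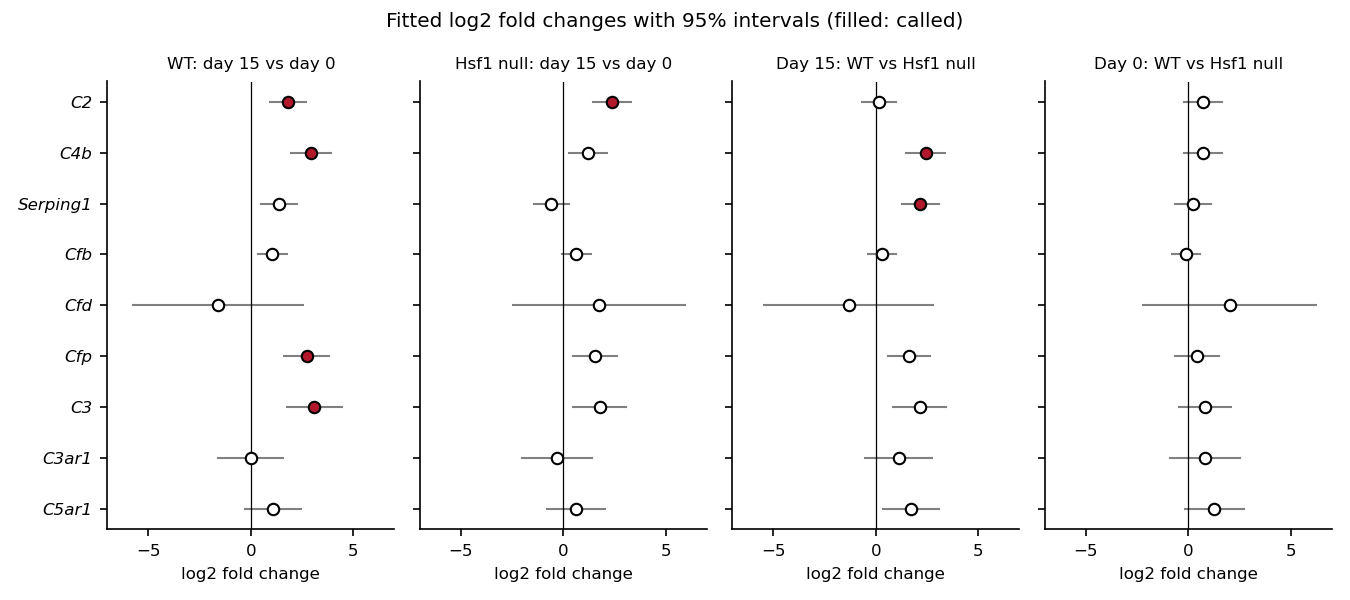
Fitted log2 fold changes (points) with 95% intervals (lines) of the 9 genes in the 4 comparisons of groups, with filled points for called genes. C2, C4b, Cfp and C3 are filled in the WT time comparison, C2 in the null one, C4b and Serping1 between genotypes at day 15, and none at day 0.

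The WT calls rested on particular libraries. Without replicate 2 of WT day 0, a shallow library, none of the 4 was called (edgeR adjusted p 0.065 for C4b, 0.090 for C3, 0.088 for Cfp and 0.17 for C2). Without replicate 2 of WT day 15 only C4b was called. The lowest of the 4 log2 fold changes in these fits was 1.45, of C2. In Hsf1 null mice C2 was not called without replicate 2 of Hsf1 null day 0 (edgeR adjusted p = 0.14). C3 and Cfp were called in Hsf1 null mice without either WT day 0 library (edgeR adjusted p 0.040 to 0.048), and C4b without replicate 1 of Hsf1 null day 15 (edgeR adjusted p = 0.042). DESeq2 called C2, C3, C4b and Cfp in Hsf1 null mice. When both shallow libraries were left out, no member was called in any comparison.

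At day 15 the calls of C4b and Serping1 were lost without any one of 4 libraries, replicate 1 or 2 of Hsf1 null day 0, replicate 2 of WT day 15 or replicate 1 of Hsf1 null day 15. The edgeR adjusted p was then 0.060 to 0.12 for C4b and 0.062 to 0.14 for Serping1. C3 was called at day 15 without replicate 2 of Hsf1 null day 15 (log2 fold change 3.08, edgeR adjusted p = 0.036) and without either WT day 0 library (edgeR adjusted p 0.041 and 0.044). With the untreated groups left out of the fit, 0 members were called and 6 genes in all. DESeq2 called C3, C4b, C5ar1, Cfp and Serping1.

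Before treatment no member passed the test between the genotypes, by edgeR or by DESeq2, and none had an unadjusted p under 0.05 in edgeR. Of all tested genes, edgeR called 0% (904 had an unadjusted p under 0.05) and DESeq2 called 18 genes. The smallest adjusted p in edgeR was 0.79, of C5ar1 (log2 fold change 1.26, SE 0.64). The median difference of the 9 genes was 0.71 toward WT, beside 0.011 over all tested genes.

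The genotype difference in the response was tested as an interaction, the log2 change from day 0 to day 15 in WT minus that in Hsf1 null mice. None of the 9 was called in edgeR, against 0.00696% of all tested genes. The unadjusted p was under 0.05 for Serping1 (difference 1.95, SE 0.55, edgeR adjusted p = 0.41) and C4b (1.72, SE 0.58, edgeR adjusted p = 0.46). DESeq2 called Serping1 (DESeq2 adjusted p = 0.033). For C3 the difference was 1.33, with a 95% interval from -0.45 to 3.12, and for C2 it was -0.54, with an interval from -1.77 to 0.68.

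Both libraries of the first group stood above both of the second for 7 members in WT over time, where this held for 31.0% of all tested genes. It held for 5 members in Hsf1 null mice over time, beside 31.0% of all genes, and for 5 at day 15 between genotypes, beside 28.6%. At day 0 it held for C2, C4b, C5ar1 and Cfd, beside 18.4%. No member stood apart in the opposite direction.

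Levels were compared between genes per kb of exon. In WT day 15 the order was C3 (268 ± 17.5 CPM per kb, SD, n = 2), Serping1 (175 ± 67.3), C4b (98.4 ± 26.2), Cfp (91.3 ± 30.6), Cfb (51.5 ± 21.8), Cfd, C2, C5ar1 and C3ar1 (3.80 ± 1.71). C4b and Cfp overlapped in their ranges, as did Cfb with Cfd and C2 with its neighbours Cfd and C5ar1. In WT day 0 the highest levels were those of Cfd (86.6 ± 62.2) and Serping1 (67.8 ± 4.32), which overlapped, and C3 was at 31.1 ± 24.6. In Hsf1 null day 15 only 1 step of the order, from C2 (9.58 ± 2.71) to C5ar1 (2.16 ± 1.35), was free of overlap.

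The members varied together in part. Among the 28 pairs without Cfd, Pearson's r of the log2 values over the 8 mice was -0.045 to 0.98, and among the 8 pairs with Cfd it was -0.54 to 0.32. The highest were C3 with Cfp (0.98) and C3 with C4b (0.97). The points share the 4 groups and their libraries, so these values describe the 8 mice and carry no test. Among 9996 other genes with a mean of at least 10 CPM, those most like C3 were Hp, encoding the acute phase protein haptoglobin (r = 0.988), and Pola2 (0.987). For C4b they were Col18a1 (0.997) and Serpina3n (0.989), for Cfp Rasgrp2 (0.997) and Arrb2 (0.993), and for Serping1 C1s1 (0.988) and Nop56 (0.979). C2 was nearest to Adrbk1 (0.987) and Tmsb10 (0.984), and Cfb to Hdac10 (0.966) and Gsdmd (0.957). C3ar1 was nearest to Rgs19 (0.964) and Canx (0.961), and C5ar1 to Wdr77 (0.968) and Thbs3 (0.967).

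**Figure D4:**
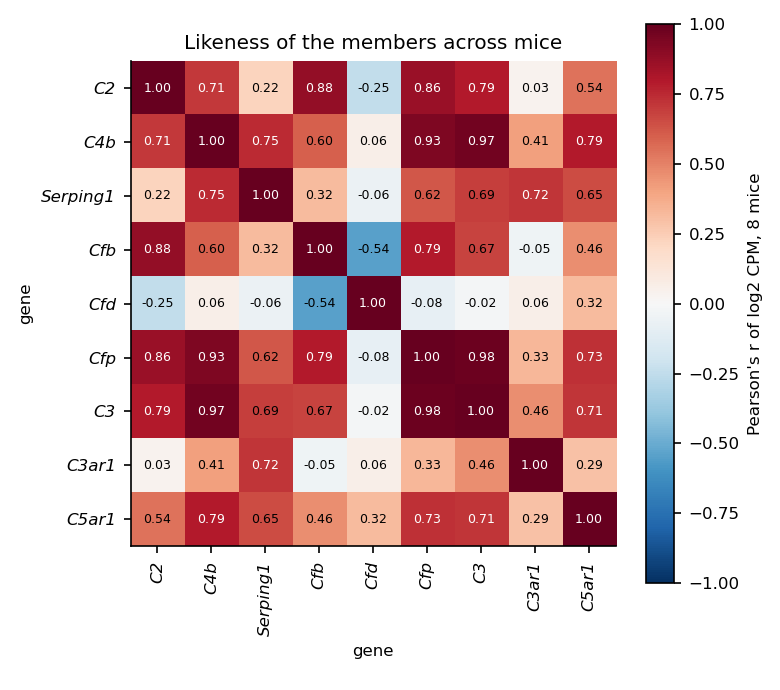
Pearson's r between the log2 CPM of each pair of the 9 genes over 8 mice, on a colour scale from -1 to 1. C3, C4b and Cfp form the block of high values (0.93 to 0.98), and the row of Cfd runs from -0.54 to 0.32.

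Promoters from RefSeq (GRCm38.p6) were found for 5 of the 9 genes, C3, Cfp, Cfd, C3ar1 and C5ar1, and none for C2, C4b, Cfb and Serping1. The promoters of C3 and Cfp are shown as those of the pair that varied most alike. Each runs from 250 bases before to 50 after the gene's start, on the minus strand, at chr17:57228087-57228386 for C3 and chrX:20931506-20931805 for Cfp. Capitals mark matches to TTNNGNAA, the core of sites of C/EBP factors, which act in acute phase genes.
C3 promoter: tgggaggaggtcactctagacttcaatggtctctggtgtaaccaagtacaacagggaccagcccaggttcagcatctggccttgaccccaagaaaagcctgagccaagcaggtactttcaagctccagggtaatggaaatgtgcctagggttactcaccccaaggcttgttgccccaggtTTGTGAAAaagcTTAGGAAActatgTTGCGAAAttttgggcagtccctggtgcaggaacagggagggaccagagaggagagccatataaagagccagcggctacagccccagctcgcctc
Cfp promoter: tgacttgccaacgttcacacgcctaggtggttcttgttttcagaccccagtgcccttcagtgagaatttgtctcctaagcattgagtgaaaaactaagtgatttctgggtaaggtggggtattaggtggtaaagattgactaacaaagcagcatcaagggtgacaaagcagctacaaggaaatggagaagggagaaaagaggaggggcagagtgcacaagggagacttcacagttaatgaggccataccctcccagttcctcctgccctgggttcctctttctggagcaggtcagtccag
C3 held 3 matches, at 70, 58 and 45 bases before the start, and Cfp held none. Among the other 3 promoters, that of C5ar1 held 1 match, and those of Cfd and C3ar1 held none. On both strands, 40.7% of 32851 promoters of the same length held TTNNGNAA. The paired HSF1 units GAANNTTC and TTCNNGAA (in 7.86% and 8.52% of promoters) and the STAT form TTCNNNGAA (8.30%) were searched as well, and none of the 5 promoters held any of them. A match is a string of letters and not a measured site, and a run that meets 2 of these patterns counts for both.

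Of 49 other complement genes listed by pathway, 35 were in the table and 31 were tested. In WT mice, 4 were called higher at day 15 and none lower, beside 3.47% of all tested genes called higher. In Hsf1 null mice none was called higher, beside 5.30% of all genes, and 2 were called lower, a share near the 6.48% of all genes called lower. At day 15, 5 were called higher in WT than in Hsf1 null and none lower, beside 1.25% of all genes called higher, and none was called at day 0 or in the interaction. The median log2 fold change of the 31 was 0.78 in WT over time, 0.060 in Hsf1 null over time and 0.69 at day 15.

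The start of the classical pathway held most of these calls. C1q, the molecule that recognizes bound antibody, is built from the products of C1qa, C1qb and C1qc and is made by macrophages. C1qa was at 63.5 and 37.7 CPM in WT day 0, 30.3 and 33.4 in Hsf1 null day 0, 206 and 212 in WT day 15, and 37.1 and 56.2 in Hsf1 null day 15. The treated WT libraries stood well above the other 6. In WT it rose by 2.03 (SE 0.31, edgeR adjusted p = 0.0088), C1qc by 1.93 (edgeR adjusted p = 0.017) and C1qb by 1.58 (edgeR adjusted p = 0.048) on the log2 scale. Without replicate 2 of WT day 0 none of these was called (edgeR adjusted p 0.065, 0.12 and 0.26), and C1qc and C1qb were not called without replicate 2 of WT day 15 (0.084 and 0.16). C1qb was also lost without replicate 1 of either day 0 group, replicate 2 of Hsf1 null day 0 or replicate 1 of WT day 15 (edgeR adjusted p 0.077 to 0.091).

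At day 15, 4 of the 6 tested genes of this class were called higher in WT, and the fitted log2 difference was positive for all 6. C1qa differed by 2.16 (edgeR adjusted p = 0.014) and C1qb by 1.83 (edgeR adjusted p = 0.048). The proteases C1s1 and C1ra, which Serping1 holds in check, differed by 1.93 (edgeR adjusted p = 0.039) and 1.74 (edgeR adjusted p = 0.044). C1s1 was at 119 and 167 CPM in WT day 15 and at 20.9 and 53.8 in Hsf1 null day 15. All 4 calls were lost without replicate 1 or 2 of Hsf1 null day 0, replicate 2 of WT day 15 or replicate 1 of Hsf1 null day 15 (edgeR adjusted p 0.052 to 0.22). C1ra was also lost without either WT day 0 library (0.055 and 0.058), and C1qb without replicate 2 of WT day 0 (0.053) or replicate 1 of WT day 15 (0.084).

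Among membrane regulators, Cd55, which speeds the decay of convertases on host cells, was at 27.1 and 31.0 CPM in WT day 0, 34.2 and 35.9 in Hsf1 null day 0, 30.5 and 57.1 in WT day 15, and 12.7 and 14.4 in Hsf1 null day 15. The treated null libraries were the lowest of the 8. It fell by 1.36 on the log2 scale in Hsf1 null mice (SE 0.33, edgeR adjusted p = 0.031) and differed by 1.69 at day 15 (SE 0.33, edgeR adjusted p = 0.032). The fall was not called without any one of the 4 null libraries (edgeR adjusted p 0.061 to 0.18). The day 15 call was lost without replicate 1 or 2 of Hsf1 null day 0, replicate 2 of WT day 15 or replicate 1 of Hsf1 null day 15 (edgeR adjusted p 0.066 to 0.20).

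Itgb2, the shared beta chain of complement receptors 3 and 4 and of other leukocyte integrins, rose by 2.28 in WT (SE 0.61, edgeR adjusted p = 0.048). It was at 33.5 and 11.1 CPM in WT day 0 and at 61.0 and 166 in WT day 15. The call was lost without replicate 2 of either day 0 group, replicate 1 of Hsf1 null day 0 or replicate 2 of WT day 15 (edgeR adjusted p 0.083 to 0.27). Colec10, a collectin of the lectin pathway, was called lower in Hsf1 null mice at day 15 (edgeR adjusted p = 0.048) on 24 and 10 counts at day 0 and 0 and 3 at day 15. Leaving out any of the 8 libraries ended that call (edgeR adjusted p 0.057 to 0.24).

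**Figure D5:**
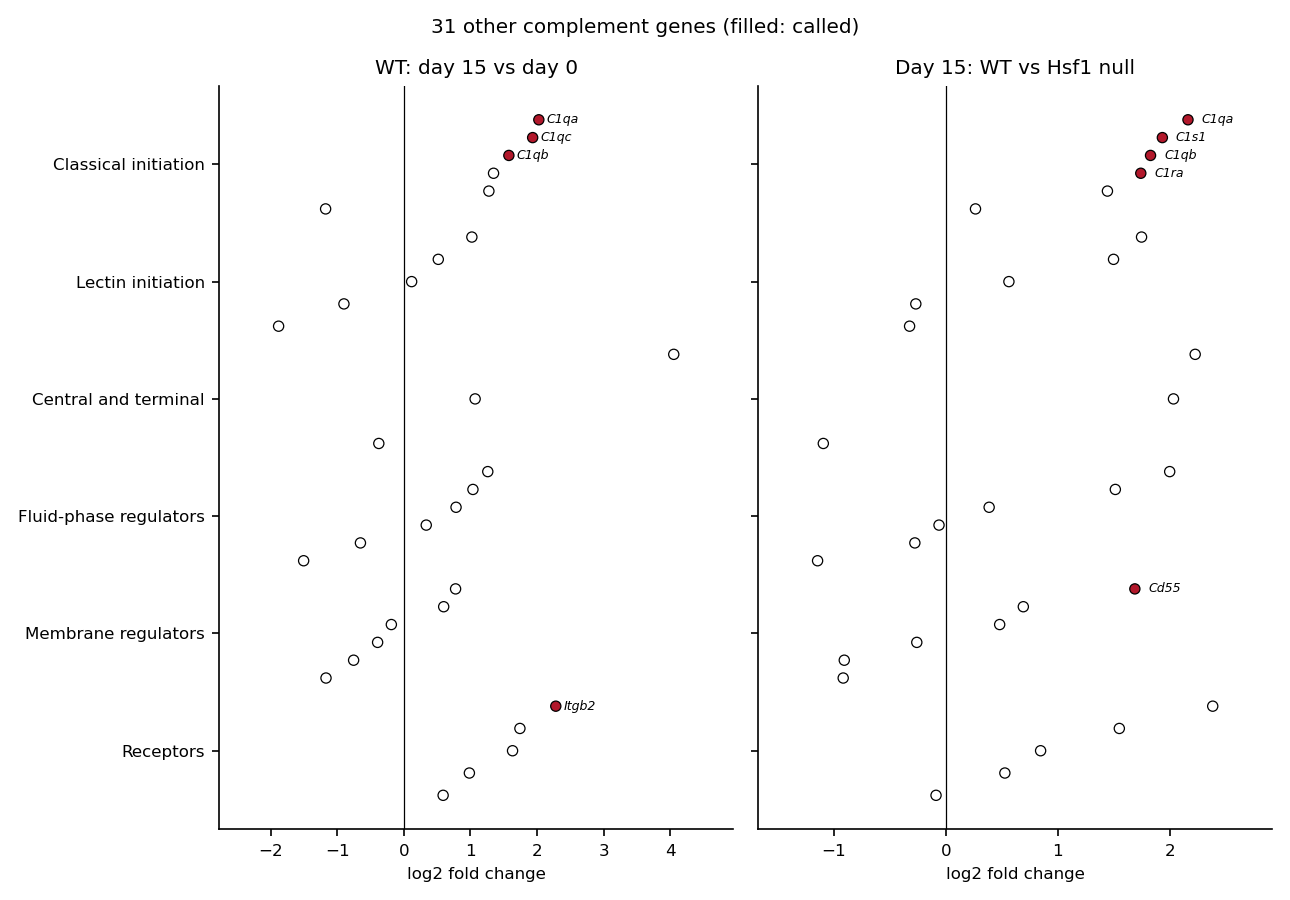
Log2 fold changes of 31 other complement genes by class, in WT over time (left) and between the genotypes at day 15 (right), with filled points for called genes. The called genes on the left are C1qa, C1qc, C1qb and Itgb2, and those on the right are C1qa, C1s1, C1qb, C1ra and Cd55.

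Markers of other cells moved with some of these genes. Neutrophil markers, 6 of 9 listed being in the table, summed to 3.6 to 11.4 CPM in the untreated libraries, 115 and 484 in WT day 15, and 6.5 and 22.7 in Hsf1 null day 15. Of the 5 tested, 3 were called higher in WT at day 15 than at day 0 and 3 higher in WT than in Hsf1 null at day 15. Over time in Hsf1 null mice, 1 of the 5 (Retnlg) was called higher, and the log2 fold change was positive for all 5 (median 2.62). Calls of markers, of this and the other cell types, were not followed when libraries were left out. S100a8 was at 23.1 and 72.0 CPM in WT day 15 and at or below 1.20 in the other 6 libraries, with 0 counts in replicate 2 of Hsf1 null day 0 and replicate 1 of Hsf1 null day 15.

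Macrophage and monocyte markers summed to 353 to 899 CPM in the untreated libraries, 863 and 1647 in WT day 15, and 286 and 662 in Hsf1 null day 15. Lyz2 alone made 642 CPM of the sum in WT day 0 replicate 1 and 1006 in WT day 15 replicate 2. Of the 8 tested, 1 was called higher in WT over time and none between the genotypes. In WT over time the log2 fold change was positive for 6 of the 8 and negative for 2. Adgre1 was at 16.5 and 9.53 CPM in WT day 0 and at 7.31 and 16.9 in WT day 15. Csf1r was at 68.6 and 33.0 CPM in WT day 0 and at 89.7 and 209 in WT day 15. Fibroblast markers summed to 856 to 2619 CPM in the untreated libraries, 2473 and 2461 in WT day 15, and 485 and 1509 in Hsf1 null day 15. None of 8 was called between the genotypes, and the day 15 difference was positive for all 8 (median 1.06). Over time 7 of 8 were positive in WT (median 0.38), with none called. In Hsf1 null mice 3 of 8 were positive (median -0.38), with 1 called lower. Smooth muscle markers went the other way in WT, from 6899 and 9456 CPM to 3462 and 2025, with 5 of 6 called lower. In Hsf1 null mice they went from 6756 and 6624 CPM to 5013 and 5819, with none called. At day 15 the fitted value of all 6 was lower in WT than in Hsf1 null (median log2 difference -0.88), and none was called. Over the 8 mice, Pearson's r with the log2 neutrophil sum was 0.96 for C3, 0.96 for Cfp and 0.95 for C4b. With the smooth muscle sum it was -0.90 for Cfp, -0.87 for C3, -0.86 for Cfb, -0.82 for C4b and 0.47 for Cfd. C2 and Cfb had an r of 0.42 and 0.40 with the macrophage sum, and of 0.17 and 0.032 with the fibroblast sum. Serping1 had an r of 0.88 with the macrophage sum and 0.89 with the endothelial sum, and C4b 0.88 with the latter. The mice share the 4 groups, so these values carry no test. The part of these cells in the levels of C3, C4b, Cfp, Serping1 and the C1 genes was not tested.

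The mice within a group also differed. The same count was not taken over all tested genes, so the counts here describe the 9 genes only. In both day 0 groups replicate 2 was the shallow library. In Hsf1 null day 15, 7 of the 9 genes were higher in replicate 2, which had the higher sums of macrophage, fibroblast, endothelial and adipocyte markers, and the exceptions were C2 and Cfb. In WT day 0, 7 of 9 were higher in replicate 1, with the higher macrophage and fibroblast sums, and the exceptions were Cfb and C5ar1. In Hsf1 null day 0, 7 were higher in replicate 1, while the macrophage sum (416 and 505 CPM in replicates 1 and 2) and the fibroblast sum (856 and 1270) were higher in replicate 2, and the adipocyte sum (62.3 and 14.4) in replicate 1. In WT day 15, 7 were higher in replicate 2, where the macrophage and neutrophil sums (115 and 484 CPM for the neutrophil markers) were also higher, while the fibroblast, endothelial and adipocyte sums were higher in replicate 1. Endothelial markers summed to 85.4 to 140.5 CPM in the untreated libraries, 285 and 232 in WT day 15, and 59.6 and 130 in Hsf1 null day 15. Of the 5 tested, 1 (Cdh5) was called higher in WT than in Hsf1 null at day 15, and the difference was positive for all 5 (median 1.38). Epithelial markers summed to 11645 to 21688 CPM in the untreated libraries, 11309 and 14626 in WT day 15, and 25710 and 19933 in Hsf1 null day 15.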

How the data were processed

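RNA of the distal colon of 8 mice was sequenced from SENSE mRNA-seq libraries. Alignment by the authors used STAR v2.4.2a with mm10 as the genome, and whole-number read counts by gene symbol were deposited; the counting program, its strand setting and the annotation are not given in the sources used here. The deposited table lists 15859 genes, each with at least 6 counts in 1 library. A second deposited table, the same counts divided by a DESeq2 size factor per sample, was not used.

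Samples were grouped by genotype, day and replicate in the labels. P-values rest on the spread between the 2 mice within a group. This spread was estimated for each gene over all 4 groups together and drawn toward that of other genes. Total counts were 2553348 to 12440257. The 14371 genes whose mean normalized count exceeded 5 were fitted together over the 4 groups with edgeR 4.0.16 (TMM, glmQLFit and glmQLFTest; prior degrees of freedom 5.97) in R 4.3.3 with limma 3.58.1, and called at an adjusted p under 0.05 and a log2 fold change beyond 1. DESeq2 1.42.0 (Wald test), other scaling and filters, a replicate block, fits of the compared groups alone, thinned counts and leaving out each library were the alternatives. Leaving out both shallow day 0 libraries and the exchanged block were added after seeing the data. The test was checked on simulated data.

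All 9 listed genes are named, with Hsf1, the called genes of a list of other complement genes (up to 8 per comparison), fixed cell markers, and the 2 most like genes per member by Pearson's r of log2 CPM (prior count 2). The members and lists were chosen with earlier results of these data known. The TTNNGNAA search was added after the other motif searches were seen. Gene positions and exon lengths are from GENCODE M21 (GRCm38, the build of mm10), and promoters from RefSeq (GRCm38.p6).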

Additional observations from a re-analysis of the deposited data

How the results depend on the processing

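With 2 mice a group, calls moved with the method and with single libraries. Of the 9 genes, edgeR called 4 in WT over time, 1 in Hsf1 null over time, 2 at day 15, 0 at day 0 and 0 in the interaction. DESeq2 called 6, 4, 5, 0 and 1. Fits of the compared groups alone called 3 in Hsf1 null over time and 0 at day 15. Leaving out both shallow day 0 libraries gave 0 in every comparison. Leaving out 1 library at a time gave 0 to 6 in WT over time, 0 to 3 in Hsf1 null over time, 0 to 3 at day 15, and 0 at day 0 and in the interaction.

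The replicate block left the members called at 4, 1, 2, 0 and 0, and the calls of all genes at 868, 1505, 343, 0 and 2. It ended the calls of C1qb (edgeR adjusted p = 0.066 in WT, 0.059 at day 15), Itgb2 (0.083) and Colec10 (0.053), and of no other named complement gene. The calls of cell markers were not followed in it. Same-numbered mice share only a number, and their deviations correlated at -0.29, 0.15, 0.14 and 0.040 in the 4 comparisons. With the WT day 0 samples exchanged, the replicate block gave 6, 3, 5, 0 and 0 members. Calls among all genes ranged over the alternatives from 4 to 1856 in WT over time (1112 as reported), 0 to 2296 in Hsf1 null over time (1692), 6 to 1314 at day 15 (455), 0 to 18 at day 0 (0) and 0 to 130 in the interaction (1). The causes were not tested.

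Changes of sign concerned genes in comparisons where they were not called. C3ar1 in WT over time was 0.016 with DESeq2 size factors, 0.042 with DESeq2 and 0.086 with thinned counts. With both shallow libraries left out it was 0.80 in Hsf1 null over time and -1.34 in the interaction. C2 at day 15 was -0.0019 with thinned counts. With 1 library left out, log2 fold changes ran from -0.55 to 1.04 for C3ar1 in WT over time. In Hsf1 null over time they ran from -1.38 to 0.83 for C3ar1, -5.95 to 6.51 for Cfd and -0.22 to 2.36 for C5ar1. At day 15 they ran from -0.21 to 0.48 for C2, -0.22 to 0.67 for Cfb and -8.20 to 6.35 for Cfd. At day 0 they ran from -0.39 to 1.41 for C3, -0.43 to 0.92 for Cfp, -0.25 to 1.93 for C3ar1 and -0.26 to 0.050 for Cfb. In the interaction they ran from -0.83 to 1.37 for C3ar1, -1.27 to 1.31 for C5ar1, -0.098 to 0.79 for Cfb and -10.21 to 4.34 for Cfd. Depth limits C2, C5ar1, C3ar1 and Cfp, at 3 to 44 counts in a shallow library.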

Other observations

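Other complement genes varied without passing the test, and those given here were chosen after their values were seen. Clu, encoding clusterin, an inhibitor of the terminal complex, was at 574 and 170 CPM in WT day 0, 403 and 108 in Hsf1 null day 0, 558 and 1228 in WT day 15, and 566 and 800 in Hsf1 null day 15. The shallow libraries held the lowest values, and the treated genotypes overlapped (log2 difference 0.39, edgeR adjusted p = 0.77).

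C6, a part of the membrane attack complex, was at 6.87 and 5.49 CPM in WT day 15 and at or below 2.41 CPM in the other 6 libraries. Its day 15 difference was not called (edgeR adjusted p = 0.20). Cr2, the complement receptor of B cells and follicular dendritic cells, ran from 0.719 CPM in an untreated null library to 113 CPM in a treated WT library, and from 14.1 to 113 CPM within WT day 15.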
